A study of Mus musculus with 9 samples.

Results

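Proteases that cut the extracellular matrix and shed proteins from the cell surface, together with their tissue inhibitors, were followed through photodynamic treatment of B.END3 cells. The members were taken by gene name from the expression table: every numbered Mmp, Adam and Adamts gene, every numbered Timp gene, and Htra1 and Htra3. The rule found 81 of the 54532 listed genes, namely 33 ADAM, 19 ADAMTS, 17 secreted MMP, 6 membrane-type MMP, 4 TIMP and 2 HtrA genes. No measured value entered the rule.

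The libraries came from B.END3, a mouse brain endothelial cell line labelled C57BL/6, and 3 libraries were made per group. The growth protocol in the labels calls the cells rat, whereas the organism field and the gene identifiers are mouse. Ctrl cells were labelled untreated. Ep1 and Ep2 cells were kept with 300 µg/mL of the porphyrin photosensitizer porfimer sodium for 90 min as a monolayer and then lit at 635 nm and 100 mW/cm2, to a light dose of 10 J/cm2 in Ep1 and 20 J/cm2 in Ep2. Since neither treated group received the photosensitizer or the light alone, their separate effects cannot be told apart here, and the time from light to lysis was not given in the sources used here. All libraries stem from a single cell line, and nothing states that they were separate cultures, so the p-values measure the spread between these libraries, which may be technical.

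MMPs are secreted or membrane-bound zinc proteases made as inactive precursors, and TIMPs bind and block their active form. ADAMs are membrane-anchored relatives that release growth factors, cytokines and receptors from the cell surface, whereas ADAMTS enzymes are secreted and cut proteoglycans and procollagens. In brain vessels, matrix proteases are known for opening the basement membrane and the junctions of the blood-brain barrier. Htra1 and Htra3 are secreted serine proteases, not metalloproteinases, and share matrix substrates with the other families.

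Levels are given in FPKM, that is fragments scaled by the authors for gene length and library size. The libraries held 16240688 to 19509225 fragments on genes. The cell type label was checked against markers. Of 13 endothelial markers, only Flt1, Eng and Egfl7 passed the filter on low values (1 FPKM or more in 3 or more of the 9 libraries), and Kdr, Cldn5, Emcn and Erg stayed under 0.1 FPKM in every library. The epithelial list stood higher, with 4 of 6 genes past the filter, but its sum came almost wholly from Krt8, Krt18 and Krt19. Its other genes were low or absent: Epcam averaged 0.812 FPKM in Ctrl, Cdh1 reached at most 0.103 FPKM, and Krt7 was at 0 in every library. The summed epithelial markers ranged over 1029 to 1081 FPKM (Ctrl), 936.8 to 1041 (Ep1) and 1155 to 1372 (Ep2), and the summed endothelial markers over 11.38 to 11.86, 11.34 to 13.09 and 14.36 to 15.43 FPKM. The rise of the endothelial sum in Ep2 came from Flt1, with means of 6.90 FPKM in Ctrl and 10.9 in Ep2. The other tested endothelial markers had lower means in Ep2, with Eng at 1.32 and 1.13 FPKM and Egfl7 at 2.09 and 1.65. Of the other lists, 1 of 6 mural, 2 of 5 fibroblast, 0 of 4 neuron and 0 of 6 astrocyte and oligodendrocyte markers passed the filter. Of the 4 tested epithelial markers, 3 were higher in Ep2 than in Ctrl (Krt19, Epcam and Krt18), against 23.9% of all tested genes. Epcam was under 1 FPKM in every Ctrl library and passed the filter through its Ep2 libraries and Ep1 replicate 1. Its rise is therefore not separate from its selection. The part of these markers in the results below was not tested. Ep1 replicate 1 stood apart from the other Ep1 libraries in several members. Member results whose call or direction rests on it are also given without it, whereas results of the gene lists are given with all libraries only. In bulk RNA, fewer cells of a type and less RNA per cell cannot be told apart.

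Of the 81 members, 21 passed the filter and were tested: 7 secreted MMPs, 1 membrane-type MMP, 2 TIMPs, 5 ADAMs, 4 ADAMTS enzymes and both HtrA proteases. Another 38 members had fragments but stayed under the filter, the highest being Adamts6 at up to 1.04 FPKM, and 22 were at 0 in all 9 libraries. A count of 0 allows up to 3 fragments per library, and this limit covers counting error only. Among those at 0 were Timp3, a matrix-bound inhibitor, Mmp16, Mmp7, Mmp8 and Mmp20, besides 13 ADAM and 4 ADAMTS genes. Timp3 lies inside Syn3 on the opposite strand, and how such overlaps were counted was not given in the sources used here. Timp4 had 0 to 2 fragments per library, so the TIMP levels listed came almost wholly from Timp1 and Timp2.

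In Ctrl, both inhibitors were the most abundant members, with Timp2 at 122 ± 2.23 FPKM and Timp1 at 104 ± 1.98 FPKM (mean ± SD, n = 3, as for all means here). The sheddase Adam10 came next at 40.0 ± 1.89 FPKM. Htra1 at 36.8 ± 1.31, Mmp14 at 35.9 ± 1.86, Mmp10 at 33.9 ± 2.48 and Adam9 at 33.4 ± 0.260 FPKM followed, and neighbours among these 4 overlapped. Adam17 at 15.7 ± 0.448 FPKM stood apart from these and from the genes after it. Adam15, Adamts4 and Mmp3 formed a further run of overlapping neighbours between 10.3 and 11.9 FPKM, as did Adamts14, Adamts1, Adam8 and Mmp13 between 8.03 and 9.57 FPKM. The lowest tested members were Htra3 at 6.54, Mmp2 at 4.90, Mmp19 at 4.67, Adamts10 at 4.63, Mmp9 at 3.95 and Mmp11 at 3.35 FPKM. In all, 10 of the 20 neighbouring pairs overlapped over the Ctrl libraries and could not be ranked beyond that spread.

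**Figure D1:**
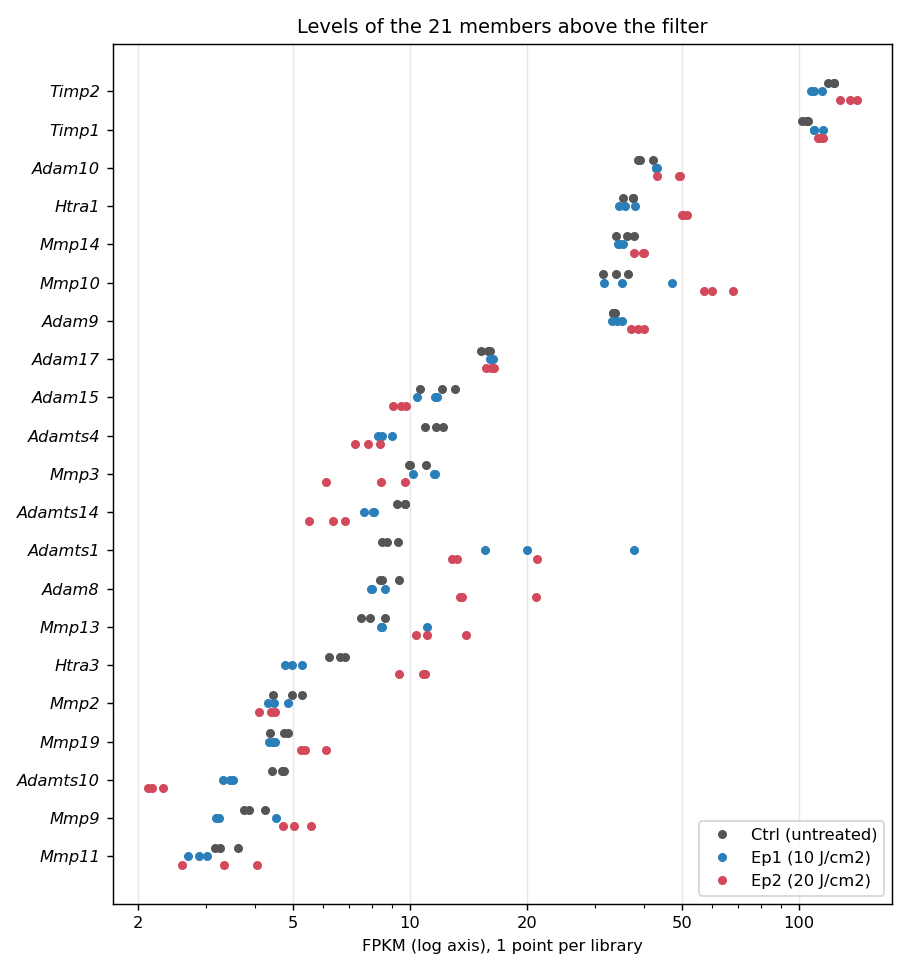
Level of each of the 21 tested members in each library, in FPKM on a log axis, with the genes in order of their Ctrl mean and the groups told apart by colour. Timp2 and Timp1 lay above 100 FPKM in every library, and Mmp11 and Mmp9 lay at the low end.

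For each pair of groups, log2(FPKM + 1) was compared with limma over the 11727 genes past the filter, with Benjamini-Hochberg adjusted p-values, and a member was called higher or lower at an adjusted p below 0.05. Differences below are on this log2(FPKM + 1) scale, which understates the change of low genes. Both doses were compared with the same Ctrl libraries. At 10 J/cm2, 1 member was higher than Ctrl and 4 were lower, against 6.32% and 4.97% of all tested genes. The member that rose was Adamts1, and those that fell were Adamts4, Adamts10, Adamts14 and Htra3, so all 4 tested ADAMTS enzymes were called and none of the MMPs, ADAMs or TIMPs. At 20 J/cm2, 12 members were higher than Ctrl and 4 lower, against 23.9% and 29.3% of all tested genes. Of all genes called there, 44.9% were higher, and 52.7% after median centring, and for Ep2 against Ep1 these shares were 42.8% and 55.5%. The higher members held 4 of the 7 secreted MMPs, Mmp14, both TIMPs, 3 of the 5 ADAMs and both HtrA proteases, while Adamts4, Adamts10, Adamts14 and Adam15 were lower. Between the doses, 9 members were higher in Ep2 than in Ep1 and 4 were lower, against 18.8% and 25.2% of all tested genes. The median difference over the 21 members was -0.06 for Ep1 against Ctrl, 0.14 for Ep2 against Ctrl and 0.15 for Ep2 against Ep1, beside -0.01, -0.03 and -0.01 over all tested genes.

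A difference of more than 0.6 in addition to the adjusted p was seen for few members. For Ep1 against Ctrl it was 1 member, Adamts1, against 0.793% of all tested genes. For Ep2 against Ctrl it was 3 members, Mmp10, Adam8 and Adamts10, against 9.17%. For Ep2 against Ep1 it was 3 members, Htra3, Adam8 and Mmp10, against 5.9%.

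**Figure D2:**
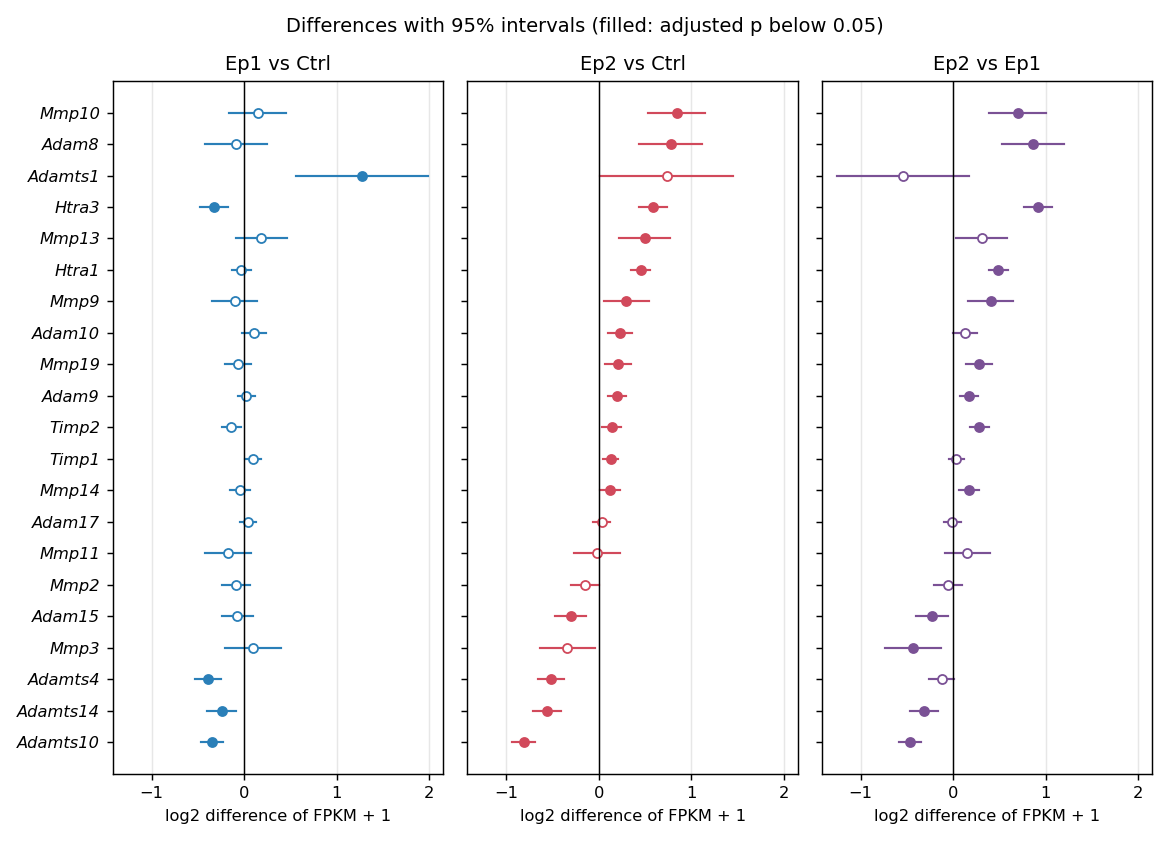
Difference in log2(FPKM + 1) of the 21 tested members in each comparison, with 95% confidence intervals from limma and filled points for called members. Of the called members, Mmp10, Adam8 and Htra3 lay farthest to the right for Ep2 against Ctrl and Adamts10 farthest to the left, whereas Adamts1 was the only called rise for Ep1 against Ctrl.

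Among the secreted MMPs, Mmp10 (GRCm38 chromosome 9, 7502352 to 7510240) had the largest called differences. Mmp10 is stromelysin-2, which cuts proteoglycans, laminin and fibronectin and can activate other MMP precursors. Its level was 31.4, 33.9 and 36.3 FPKM in Ctrl, 47.3, 31.6 and 35.2 in Ep1 and 57.1, 59.7 and 67.8 in Ep2 (replicates 1, 2 and 3). All Ep2 libraries lay above all Ctrl and Ep1 libraries, while Ep1 overlapped Ctrl with replicate 1 on its own above it. The difference was 0.84 ± 0.137 (SE, adjusted p = 0.00100, limma) for Ep2 against Ctrl and 0.70 (adjusted p = 0.00372) against Ep1. For Ep1 against Ctrl it was 0.15 (adjusted p = 0.517), and without Ep1 replicate 1 it turned to -0.02. Mmp10 made up 31.6 ± 1.76% of the summed MMP level in Ctrl, 34.1 ± 4.10% in Ep1 and 43.5 ± 1.25% in Ep2.

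Mmp13, collagenase-3, which cleaves fibrillar collagen, had its group means in the same order at a lower level. It stood at 7.51, 7.92 and 8.66 FPKM in Ctrl, 11.1, 8.50 and 8.42 in Ep1 and 10.4, 11.1 and 13.9 in Ep2. Every Ep2 library was above every Ctrl library, and Ep1 replicate 1 lay within the Ep2 range. The difference for Ep2 against Ctrl was 0.50 ± 0.123 (SE, adjusted p = 0.00799), while Ep1 against Ctrl gave 0.19 (adjusted p = 0.345) and Ep2 against Ep1 0.31 (adjusted p = 0.0695). The last comparison passed the threshold without Ep1 replicate 1 (adjusted p = 0.0163) or Ep2 replicate 1 (0.0449), after median centring (0.0382), after a correction for gene length (0.0449) and on recovered fragments with voom (0.0410).

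Mmp3, stromelysin-1, lies close to Mmp10 in the genome and was lower, not higher, in Ep2 than in Ep1. Its level was 9.96, 9.99 and 11 FPKM in Ctrl, 11.6, 11.6 and 10.2 in Ep1, and 6.09, 8.43 and 9.70 in Ep2. The Ep2 libraries were the lowest, and replicate 1 was well below the others. Against Ep1 the difference was -0.43 ± 0.132 (SE, adjusted p = 0.0256), and against Ctrl it was -0.34 (adjusted p = 0.0563). The fall against Ep1 was -0.27 without Ep2 replicate 1 (adjusted p = 0.0225) and lost its call without Ep1 replicate 1 (0.0727) or 2 (0.0779), with no filter (0.0685), after the length correction (0.0585) and with those groups fitted alone (0.0532). The comparison with Ctrl passed the threshold without Ep2 replicate 3 (adjusted p = 0.00977), under the stricter filter (0.0486) and with voom (0.0179).

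The Mmp3, Mmp10 and Mmp13 genes belong to a run of 10 of the 23 MMP genes on chromosome 9, between 7272514 and 7699585 on GRCm38, a span of 427.1 kb. In this run, the 3 genes were the only tested ones, Mmp12, Mmp1b, Mmp1a and Mmp27 stayed under the filter, and Mmp8, Mmp20 and Mmp7 were at 0. The start of Mmp13 lies at 7272514, that of Mmp3 at 7445822 and that of Mmp10 at 7502352, all on the forward strand.

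**Figure D3:**
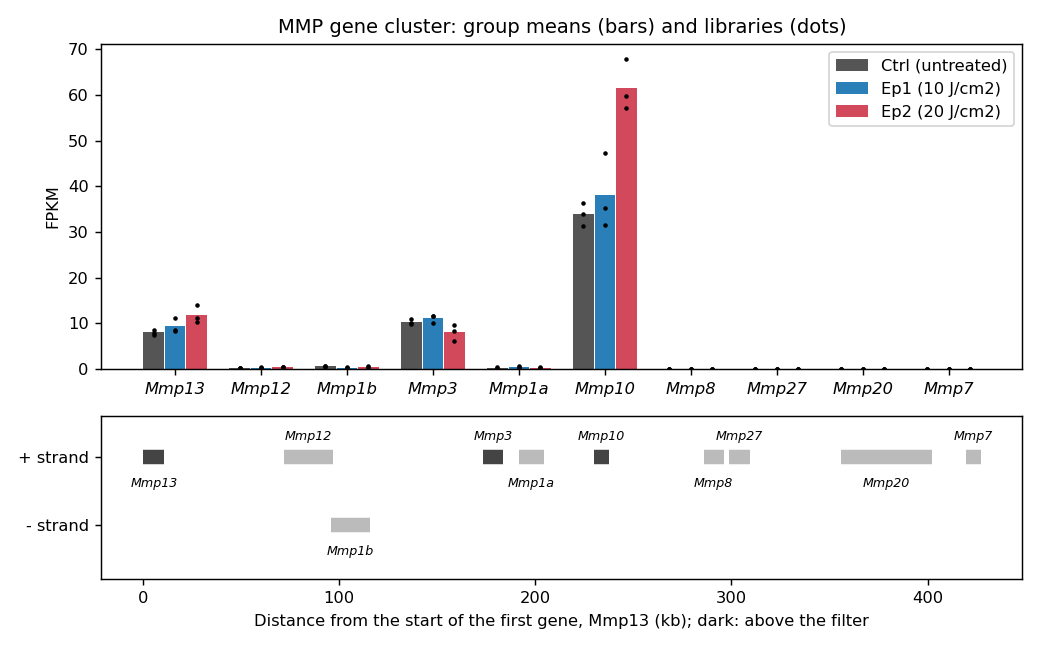
Mean level in FPKM of the chromosome 9 MMP genes in Ctrl, Ep1 and Ep2, as bars with a dot per library, above a map of the genes by distance in kb from the first start. Mmp10 rose from 33.9 to 61.5 FPKM and Mmp3 stood at 10.3 and 8.07 FPKM in Ctrl and Ep2, although they follow each other among the tested genes of the run.

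Promoters of collagenase and stromelysin genes are known for a site of AP-1, the dimer of FOS and JUN family factors. The letters TGANTCA, which read the same on both strands (N is any base), were searched in RefSeq promoters (GRCm38.p6, 250 bases before to 50 after the start). They were found in 7.81% of all 32851 promoters and 6.16% of the 8342 tested genes with a promoter. Of the 15 tested members with a promoter 3 held them, namely Mmp10, Mmp13 and Mmp3, and 8 of the 10 genes of the chromosome 9 run did. A match is a description of the letters only. The 110 bases before each RefSeq start are shown because Mmp10 and Mmp3 hold the same letters there and differed in opposite directions between the doses. Capitals mark the motif, which begins 63, 35 and 46 bases before the start, respectively.
Mmp10, chr9:7502232-7502341, forward strand: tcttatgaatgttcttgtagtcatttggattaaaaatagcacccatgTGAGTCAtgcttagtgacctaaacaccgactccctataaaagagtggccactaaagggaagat
Mmp13, chr9:7272404-7272513, forward strand: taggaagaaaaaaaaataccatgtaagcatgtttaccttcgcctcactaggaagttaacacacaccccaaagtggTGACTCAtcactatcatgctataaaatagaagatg
Mmp3, chr9:7445712-7445821, forward strand: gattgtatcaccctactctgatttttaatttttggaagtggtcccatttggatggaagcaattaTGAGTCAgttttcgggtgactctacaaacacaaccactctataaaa

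Of the gelatinases, which degrade type IV collagen of the basement membrane, Mmp9 was called and Mmp2 was not. Mmp9 (chromosome 2, 164940780 to 164955850), gelatinase B, was at 3.75, 4.25 and 3.87 FPKM in Ctrl, 4.53, 3.23 and 3.18 in Ep1 and 4.71, 5.57 and 5.04 in Ep2. The Ep2 libraries were the highest, and Ep1 replicate 1 was above Ctrl while the other Ep1 libraries were below it. Mmp9 was higher in Ep2 than in Ctrl by 0.30 ± 0.108 (SE, adjusted p = 0.0394) and than in Ep1 by 0.40 (adjusted p = 0.0134). The call against Ctrl was lost without Ctrl replicate 1 (adjusted p = 0.111), 2 (0.0510) or 3 (0.0929), without Ep2 replicate 2 (0.126) or 3 (0.0719), with no filter (0.103) and with the replicate number as a block (0.0635), and the call against Ep1 without Ep1 replicate 2 (0.0531) or 3 (0.0541). Mmp2, gelatinase A, had means of 4.90 ± 0.430, 4.56 ± 0.277 and 4.33 ± 0.201 FPKM in Ctrl, Ep1 and Ep2, and the groups overlapped. Its difference for Ep2 against Ctrl was -0.14 (95% confidence interval -0.30 to 0.01, adjusted p = 0.102), and it passed the threshold only without Ctrl replicate 3 (0.0355).

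Mmp19 (chromosome 10, 128790910 to 128800824), which cuts basement membrane proteins, was at 4.76, 4.38 and 4.88 FPKM in Ctrl, 4.35, 4.44 and 4.50 in Ep1, and 6.10, 5.25 and 5.39 in Ep2. Ep2 lay above both other groups. The difference was 0.21 ± 0.0622 (SE, adjusted p = 0.0166) against Ctrl, where it was lost without Ctrl replicate 2 (0.0669), and 0.27 (adjusted p = 0.00602) against Ep1. Mmp11, stromelysin-3, which furin activates inside the cell, had means of 3.35 ± 0.241, 2.86 ± 0.155 and 3.32 ± 0.720 FPKM. In Ep2 its libraries spread from 2.6 to 4.04 FPKM, and no comparison passed the threshold, with -0.02 (95% confidence interval -0.27 to 0.23, adjusted p = 0.891) for Ep2 against Ctrl. Leaving out Ep2 replicate 3 brought the comparison with Ep1 past the threshold (adjusted p = 0.0294) and turned the small difference from Ctrl to 0.11, and without Ctrl replicate 1 it was 0.02. Part of Mmp19 and of Mmp11 overlaps Tmem198b and Chchd10, respectively, on the opposite strand, and whether counting used strand was not given in the sources used here.

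Mmp14 (chromosome 14, 54431612 to 54445364), the membrane-type MMP that activates the Mmp2 precursor with the help of Timp2, was the only tested member of its class. It was at 36.2, 37.6 and 33.9 FPKM in Ctrl, 34.2, 34.5 and 35.4 in Ep1, and 37.7, 39.8 and 40.1 in Ep2. Ep2 libraries lay above the others by a narrow margin. Its difference was 0.12 ± 0.0469 (SE, adjusted p = 0.0492) against Ctrl and 0.17 (adjusted p = 0.0153) against Ep1. The first call was lost without Ctrl replicate 1 (adjusted p = 0.0908) or 3 (0.158), without Ep2 replicate 2 (0.124) or 3 (0.121), with no filter (0.102), with Ctrl and Ep2 fitted alone (0.0944) and with the replicate block (0.0674). While Mmp10 gained in share, Mmp14 made up 33.5 ± 1.91% of the summed MMP level in Ctrl, 31.6 ± 3.13% in Ep1 and 27.8 ± 1.05% in Ep2.

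Both tested inhibitors were higher than Ctrl at 20 J/cm2, by small differences on a high level. Timp2 (chromosome 11, 118301069 to 118355740) was at 123, 123 and 119 FPKM in Ctrl, 115, 108 and 110 in Ep1, and 128, 135 and 141 in Ep2. The groups were separate, with Ep1 below and Ep2 above Ctrl. Its difference was 0.28 ± 0.0458 (SE, adjusted p = 0.00105) for Ep2 against Ep1, 0.14 (adjusted p = 0.0248) for Ep2 against Ctrl and -0.14 (adjusted p = 0.0806) for Ep1 against Ctrl. The Ep2 call against Ctrl was lost without Ctrl replicate 1 (adjusted p = 0.0528), 2 (0.0530) or 3 (0.0746), without Ep2 replicate 2 (0.0647) or 3 (0.0732) and with no filter (0.0556), and the Ep1 difference passed the threshold when Ctrl and Ep1 were fitted alone (0.0367). The Timp2 gene spans the small gene Cep295nl on the same strand, which stood at 2.12 FPKM in Ctrl and 5.49 in Ep2.

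Timp1 (chromosome X, 20870166 to 20874735) was at 102, 106 and 105 FPKM in Ctrl, 115, 109 and 109 in Ep1, and 112, 114 and 116 in Ep2. Both treated groups lay above Ctrl and overlapped each other. The difference was 0.13 ± 0.0368 (SE, adjusted p = 0.0153) for Ep2 against Ctrl, and 0.10 (adjusted p = 0.119) for Ep1 against Ctrl. The call in Ep2 was lost without Ctrl replicate 1 (adjusted p = 0.0610), and the difference was 0.20 after the length correction. Timp1 lies inside Syn1 on the opposite strand, and Syn1 was at 2.56 FPKM in Ctrl and 4.06 in Ep2.

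Added up, the TIMPs stood at 226 ± 2.70 (Ctrl), 222 ± 6.98 (Ep1) and 249 ± 8.51 FPKM (Ep2). The summed MMP level was 107 ± 2.56, 111 ± 10.4 and 141 ± 8.97 FPKM. The ratio of the sums was 2.16, 2.10 and 2.07 in the Ctrl libraries, 1.88, 2.09 and 2.07 in Ep1, and 1.80, 1.78 and 1.7 in Ep2. All Ep2 ratios were below those of the other groups, and no test was run on this score. Mmp10 alone went from 33.9 FPKM in Ctrl to 61.5 in Ep2 and made up 31.6 ± 1.76% and 43.5 ± 1.25% of the MMP sum there. The ratios therefore do not describe the MMPs without Mmp10. The listed TIMP sum was above the MMP sum in all 9 libraries.

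Of the ADAM sheddases best known for Notch and growth factor processing, Adam10 rose at 20 J/cm2 and Adam17 was not called. Adam10 (chromosome 9, 70678997 to 70780229), which sheds Notch and cadherins, was at 39.1, 38.7 and 42.1 FPKM in Ctrl, 42.9, 42.9 and 43.2 in Ep1, and 43.2, 49.4 and 49.3 in Ep2. Both treated groups were above Ctrl, and Ep2 replicate 1 was level with Ep1. The difference for Ep2 against Ctrl was 0.24 ± 0.0577 (SE, adjusted p = 0.00697), that for Ep1 0.10 (adjusted p = 0.261), and Ep2 exceeded Ep1 by 0.13 (adjusted p = 0.0920). Without Ep2 replicate 1 the last comparison gave an adjusted p of 0.00683, after median centring 0.0235 and after the length correction 0.0420. Adam17, which releases TNF and ligands of the EGF receptor, had means of 15.7 ± 0.448, 16.2 ± 0.139 and 16.1 ± 0.389 FPKM. No comparison of Adam17 passed the threshold, with 0.03 (95% confidence interval -0.06 to 0.12, adjusted p = 0.504) for Ep2 against Ctrl. For Ep2 against Ep1 it was -0.01, and 0.00976 without Ep2 replicate 1. The far end of Adam17 overlaps Iah1 on the opposite strand.

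Adam8 was higher in Ep2 than in both other groups. Adam8 (chromosome 7, 139978932 to 139992562) is known from leukocytes and cuts adhesion molecules. Its level was 8.49, 9.40 and 8.38 FPKM in Ctrl, 8.65, 8.01 and 7.93 in Ep1, and 21.1, 13.6 and 13.5 in Ep2. All Ep2 libraries were above all others, and replicate 1 was by far the highest. The difference was 0.78 ± 0.147 (SE, adjusted p = 0.00218) against Ctrl and 0.86 (adjusted p = 0.00173) against Ep1, while Ep1 against Ctrl gave -0.08 (adjusted p = 0.744). Without Ep2 replicate 1 the difference from Ctrl was 0.58. Of the leukocyte marker list, 0 of 5 genes passed the filter, and its sum was 0.0956 to 0.239 FPKM in Ctrl, 0.0877 to 0.20 in Ep1 and 0.155 to 0.275 in Ep2, with Ptprc, Itgam and Cd3e under 0.1 FPKM in every library.

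Adam9 (chromosome 8, 24949611 to 25016927), a widely expressed sheddase, was at 33.7, 33.3 and 33.3 FPKM in Ctrl, 35.1, 33.0 and 34.0 in Ep1, and 37.0, 39.9 and 38.6 in Ep2. Ep2 lay above both other groups, which overlapped. The difference was 0.20 ± 0.0415 (SE, adjusted p = 0.00315) against Ctrl and 0.17 (adjusted p = 0.00828) against Ep1. Adam15 (chromosome 3, 89338542 to 89349996), which carries an integrin-binding motif, was the only tested ADAM that fell. It was at 12.1, 13.1 and 10.6 FPKM in Ctrl, 10.4, 11.6 and 11.7 in Ep1, and 9.80, 9.52 and 9.05 in Ep2. The Ep2 libraries were the lowest, and Ep1 overlapped Ctrl. The difference was -0.30 ± 0.0748 (SE, adjusted p = 0.00738) against Ctrl and -0.23 (adjusted p = 0.0323) against Ep1, and the latter call was lost without Ep1 replicate 2 (0.10) or 3 (0.105), without Ep2 replicate 2 (0.0673) or 3 (0.0878), with no filter (0.0856) and after median centring (0.0870).

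Adamts1 (chromosome 16, 85793827 to 85803113), a secreted protease of versican and aggrecan, had the largest rise at 10 J/cm2 and the widest spread. It was at 8.50, 8.74 and 9.30 FPKM in Ctrl, 37.8, 15.6 and 20.1 in Ep1, and 12.9, 13.2 and 21.2 in Ep2. Every treated library was above every Ctrl library, Ep1 replicate 1 was far above the rest, and the doses overlapped. The difference for Ep1 against Ctrl was 1.28 ± 0.308 (SE, adjusted p = 0.0387), for Ep2 against Ctrl 0.73 (adjusted p = 0.0784), and for Ep2 against Ep1 -0.54 (95% confidence interval -1.26 to 0.17, adjusted p = 0.190). Without Ep1 replicate 1 the rise in Ep1 was 0.93 and not called (adjusted p = 0.0623). The call was also lost without Ctrl replicate 1 (0.105), 2 (0.122) or 3 (0.0651), without Ep1 replicate 3 (0.0936), with no filter (0.0839), with Ctrl and Ep1 fitted alone (0.0537), with the replicate block (0.0577) and with voom (0.0715). When Ctrl and Ep2 were fitted alone, the rise in Ep2 passed the threshold (adjusted p = 0.0165). The summed AP-1 factors were highest in Ep1 replicate 1 as well. They stood at 223, 229 and 210 FPKM in Ctrl, 345, 252 and 257 in Ep1, and 267, 235 and 246 in Ep2. The searched promoter window of Adamts1 held 0 matches to the AP-1 letters, and the part of these factors in the Adamts1 level was not tested.

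**Figure D4:**
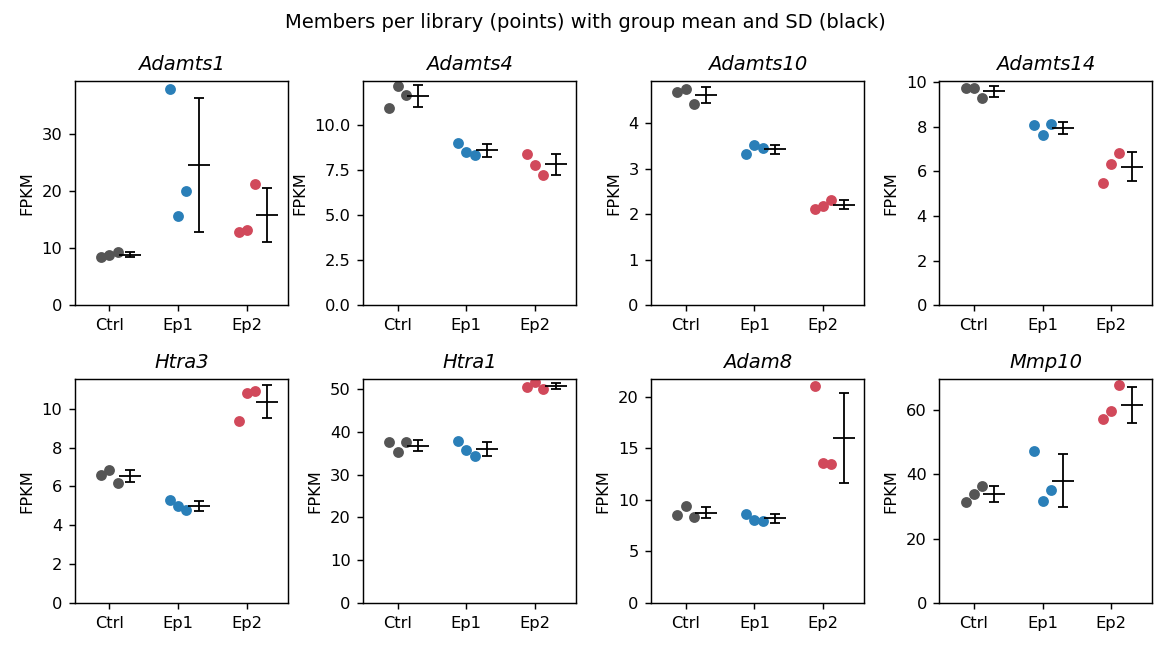
FPKM of 8 members in each of the 9 libraries, with a point per library and the group mean and SD in black. Adamts1 spread widely in Ep1, with replicate 1 at 37.8 FPKM, whereas the 3 groups of Adamts10 and of Htra3 did not overlap.

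The other tested ADAMTS enzymes fell at both doses. Adamts10 (chromosome 17, 33524204 to 33553782), which acts on fibrillin microfibrils, was at 4.70, 4.75 and 4.43 FPKM in Ctrl, 3.32, 3.52 and 3.46 in Ep1, and 2.13, 2.18 and 2.32 in Ep2. The 3 groups did not overlap, and the level fell with each dose. The difference was -0.34 ± 0.0539 (SE, adjusted p = 0.00917) for Ep1 against Ctrl, -0.81 (adjusted p = 6.28e-06) for Ep2 against Ctrl and -0.47 (adjusted p = 1.56e-04) for Ep2 against Ep1. The first call was lost without Ctrl replicate 2 (adjusted p = 0.0502). The mean FPKM decreased by 52.3% from Ctrl to Ep2.

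Adamts14 (chromosome 10, 61197112 to 61273438), which removes the N-terminal propeptide of fibrillar procollagens, was at 9.71, 9.73 and 9.28 FPKM in Ctrl, 8.07, 7.61 and 8.11 in Ep1, and 5.49, 6.34 and 6.80 in Ep2. Here too the groups did not overlap. The difference was -0.56 ± 0.0675 (SE, adjusted p = 1.33e-04) for Ep2 against Ctrl, -0.31 (adjusted p = 0.00485) for Ep2 against Ep1 and -0.24 (adjusted p = 0.0475) for Ep1 against Ctrl. The last call was lost without Ctrl replicate 1 (adjusted p = 0.129), 2 (0.155) or 3 (0.0714), without Ep1 replicate 1 (0.108), 2 (0.123) or 3 (0.113), with no filter (0.128), with a pseudocount of 0.1 (0.0513) and with the replicate block (0.0741).

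Adamts4 (chromosome 1, 171250421 to 171260637), an aggrecanase, was at 10.9, 12.1 and 11.7 FPKM in Ctrl, 9.0, 8.49 and 8.31 in Ep1, and 8.38, 7.80 and 7.24 in Ep2. Both treated groups were below Ctrl and overlapped each other. The difference was -0.39 ± 0.0613 (SE, adjusted p = 0.00924) for Ep1 against Ctrl and -0.52 (adjusted p = 1.17e-04) for Ep2 against Ctrl. Ep2 against Ep1 gave -0.13 (adjusted p = 0.124), which passed the threshold without Ep2 replicate 1 (0.0418).

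Leaving out Adamts1, the summed ADAMTS level was 27.6 ± 0.644 (Ctrl), 21.6 ± 0.424 (Ep1) and 18.2 ± 0.478 FPKM (Ep2). With Adamts1 it was 36.5 ± 0.697, 46.1 ± 12.1 and 34.0 ± 5.18 FPKM, so the direction of the class in Ep1 turned on this gene, with Ep1 replicate 1 at 59.9 FPKM.

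The serine protease Htra3 (chromosome 5, 35652023 to 35679782), which is known to bind TGF-beta family ligands, went in opposite directions at the 2 doses. It was at 6.61, 6.83 and 6.19 FPKM in Ctrl, 5.28, 4.98 and 4.77 in Ep1, and 9.40, 10.8 and 10.9 in Ep2. Every Ep1 library was below and every Ep2 library above every Ctrl library. The difference was -0.33 ± 0.0664 (SE, adjusted p = 0.0185) for Ep1 against Ctrl, 0.59 (adjusted p = 8.62e-05) for Ep2 against Ctrl and 0.92 (adjusted p = 1.41e-05) for Ep2 against Ep1. The fall in Ep1 lost its call without Ctrl replicate 1 (adjusted p = 0.0664) or 2 (0.0858), without Ep1 replicate 3 (0.0777) and with no filter (0.0597).

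Htra1 (chromosome 7, 130936111 to 130985660), which cuts fibronectin and decorin, was at 37.5, 35.3 and 37.6 FPKM in Ctrl, 37.8, 35.7 and 34.4 in Ep1, and 50.5, 51.6 and 50.1 in Ep2. The Ep2 libraries were tightly grouped above the others, which overlapped. The difference was 0.45 ± 0.0457 (SE, adjusted p = 4.75e-05) for Ep2 against Ctrl, 0.48 (adjusted p = 5.22e-05) for Ep2 against Ep1 and -0.03 (adjusted p = 0.681) for Ep1 against Ctrl.

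Members under the filter were read in fragments, since their FPKM was too low for the log scale. The 16 with enough fragments for voom, at least 10 in at least 3 libraries, gave 0 higher and 0 lower for Ep1 against Ctrl, against 7.62% and 5.95% of the 14112 genes tested this way, and 0 also with log2(FPKM + 1) and no filter. For Ep2 against Ctrl there were 3 higher and 2 lower, against 23.8% and 26.3%: the macrophage elastase Mmp12, the membrane-type Mmp25 and Adam23, a receptor of LGI proteins in neurons, were higher, and Adam11 and Adam12 lower. Mmp12, which lies in the chromosome 9 run and overlaps Mmp1b on the opposite strand, had 30, 38 and 37 fragments in Ctrl, 66, 26 and 44 in Ep1, and 56, 65 and 64 in Ep2 (0.89 ± 0.265, SE, adjusted p = 0.00896). Adam23 had 8, 7 and 7 fragments in Ctrl and 15, 40 and 24 in Ep2, and Adam11 had 22, 35 and 26 in Ctrl and 6, 7 and 9 in Ep2. All Ep2 libraries of Adam23 were above, and all of Adam11 below, those of Ctrl, at 1.74 (adjusted p = 0.00257) and -1.77 (adjusted p = 0.00222). Mmp25 and Adam12, at 1.13 (adjusted p = 0.0425) and -2.12 (adjusted p = 0.0272), rested on at most 17 fragments in any library. Adam23 and Mmp25 would not have passed the fragment limit without their Ep2 libraries, nor Adam11 and Adam12 without their Ctrl libraries. The differences of these genes are therefore not separate from their selection. Between the doses there were 3 higher and 1 lower, against 18.7% and 22.7%, namely Mmp28 at 0.71, Mmp25 at 1.21, Adam23 at 1.35 and Adam12 at -2.00. With log2(FPKM + 1) and no filter, Adam11 was the only one of these called, for Ep2 against Ctrl (adjusted p = 0.0444). Mmp1a and Mmp1b, and Adam1a and Adam1b, are close paralogs whose reads could have been split between copies.

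Genes that work with the members were read from lists. Of 27 activators, inhibitors and partners, 17 were tested, 1 higher and 2 lower in Ep1 and 7 higher and 4 lower in Ep2 than Ctrl, with medians of -0.05 and 0.13 beside -0.01 and -0.03 over all tested genes. Of all tested genes, 6.32% were higher and 4.97% lower in Ep1 and 23.9% higher and 29.3% lower in Ep2, so the share higher in Ep1 was near that of all genes. Plaur, the receptor of urokinase, which starts plasmin formation and so MMP activation, rose by 0.42 in Ep1 (adjusted p = 0.00464) and 0.50 in Ep2 (adjusted p = 2.78e-05). Plat, tissue plasminogen activator, rose by 0.43 in Ep2 (adjusted p = 5.93e-04). Serpine2, a serpin that inhibits plasminogen activators and thrombin, fell by 0.45 in Ep2 (adjusted p = 6.94e-05). Between the doses, 4 of the 17 were higher and 1 lower in Ep2 (median 0.09), against 18.8% and 25.2% of all tested genes (median -0.01), led by Bsg at 0.49, which induces MMPs, and by Serpine2 at -0.58. Of the tested partners of Adam17, Rhbdf1 and Frmd8 fell by 0.20 and 0.29 in Ep1 and by 0.22 and 0.17 in Ep2, while Rhbdf2 was at -0.09 (adjusted p = 0.233) and -0.01 (adjusted p = 0.808) and was not called.

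Known substrates of the proteases were tested for 32 of 43 genes. Of these, 6 were higher and 3 lower in Ep1, and 14 higher and 4 lower in Ep2, than in Ctrl, with medians of -0.01 and 0.11. All tested genes had 6.32% higher and 4.97% lower in Ep1, 23.9% higher and 29.3% lower in Ep2, and medians of -0.01 and -0.03. The EGF receptor ligands Areg and Ereg, which Adam17 sheds, rose by 0.70 and 0.40 in Ep1 (adjusted p = 0.00551 and 0.00683) and by 1.02 and 0.92 in Ep2 (adjusted p = 2.13e-05 and 4.03e-06). Thbs1, a matrix protein and substrate of Adamts1, rose by 0.63 in Ep1 (adjusted p = 0.0161) and 1.15 in Ep2 (adjusted p = 7.21e-05). Versican, a proteoglycan that Adamts1 and Adamts4 cut, fell by 0.82 in Ep2 (Vcan, adjusted p = 1.43e-04), and perlecan fell by 0.34 in Ep1 and 0.43 in Ep2 (Hspg2, adjusted p = 0.0105 and 2.16e-04). Between the doses, 14 of the 32 were higher in Ep2 and 2 lower (median 0.15), against 18.8% and 25.2% of all tested genes (median -0.01), with Il6ra, a receptor that Adam17 and Adam10 release, at 0.55 and Vcan at -0.67.

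Of the 10 AP-1 factors, 9 were tested, with medians of 0.54 for Ep1 against Ctrl, 0.26 for Ep2 against Ctrl and -0.46 for Ep2 against Ep1, beside -0.01, -0.03 and -0.01 over all tested genes. Ep1 against Ctrl gave 3 higher and 0 lower, namely Atf3 at 2.43 (adjusted p = 0.0253), Fosl2 at 0.54 (adjusted p = 0.0126) and Jund at 0.50 (adjusted p = 0.0425), against 6.32% and 4.97% of all tested genes. For Ep2 against Ctrl, Atf3 at 1.60 and Fosl2 at 0.53 were higher and Batf3 at -0.73 was lower, against 23.9% and 29.3% of all tested genes. Between the doses, 0 were higher and 2 lower in Ep2, Jun at -1.02 and Batf3 at -0.46, against 18.8% and 25.2% of all tested genes. Atf3 was at 33.8, 8.36 and 11.2 FPKM in the Ep1 libraries, so Ep1 replicate 1, the library with the most Adamts1, was again the highest. The promoter window of Adamts1 held 0 matches to the AP-1 letters, and a link between these levels was not tested.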

How the data were processed

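RNA of 9 B.END3 libraries (3 Ctrl, 3 Ep1, 3 Ep2) was sequenced, and the authors deposited an FPKM value per gene and library with the gene length and position. The submitters' processing notes list Bowtie 0.12.2 and mm8, and the study's methods name GRCm39, while the listed positions overlapped RefSeq GRCm38.p6 for 81 of 81 members and GRCm39 for 22, so positions here are GRCm38. The counting tool and its use of strand were not given in the sources used here. Reads of genes that overlap on opposite strands, as some members do, therefore cannot be told apart. FPKM times gene length gave whole multiples of a step per library (within 0.05, in 100% of values above 0.02 FPKM), which gave the fragments.

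Genes with at least 1 FPKM in no fewer than 3 libraries (11727) were compared as log2(FPKM + 1) with limma 3.58.1 in R 4.3.3 (lmFit, eBayes with trend and robust estimation) over all libraries, with no covariate and Benjamini-Hochberg adjustment per comparison. Tables and sums used Python 3.11.15, pandas 2.3.3 and numpy 2.4.6, and figures matplotlib 3.10.9. The procedure was tested on simulated data. Every member past the filter was named, with values per library where a comparison passed an adjusted p of 0.05. Of each further list (activators and partners, other metalloproteinases, substrates, AP-1 factors, cell type markers), the called genes with the largest differences were named. The members and lists were chosen with earlier results of these data known.

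Alternatives were median centring, a length correction, a stricter filter and no filter, a pseudocount of 0.1, fits of only the groups compared, a replicate block, voom on the fragments (at least 10 in 3 or more libraries) and leaving out each library. A planned search of protein motifs was not run, since no protein table was used here. Some genes are not reported here.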

Additional observations from a re-analysis of the deposited data

Results flagged for a closer look

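Htra3 was singled out because its 2 doses passed the threshold on opposite sides of Ctrl and the direct comparison of the doses passed it too. Every Ep1 library was also below and every Ep2 library above every Ctrl library. The direct comparison gave a log2 difference, Ep2 minus Ep1, of 0.92 (limma, adjusted p = 1.41e-05). Since its call was a condition of the selection, it adds no separate support. The check for a single library that stands apart was not run, because it needs groups of more than 3 libraries.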

How the results depend on the processing

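Each group had 3 libraries, and every tested member had at least 120 fragments in each library, while most members under the filter had too few to compare. For Ep1 against Ctrl, the 1 higher member, which was also the 1 past 0.6, became 0 with no filter, with only the 2 groups fitted, with the replicate block and with voom, and 0 to 1 when a library was left out. The 4 lower members became 2 with no filter and 1 to 3 when a library was left out. The voom counts also take in 16 members under the filter, so they cover more members than the main counts. Among these, Adam23, Mmp25, Adam11 and Adam12 passed the fragment limit only with the group in which they were high. For Ep2 against Ctrl, voom gave 7 lower members in place of 4, with Mmp3 and, from under the filter, Adam11 and Adam12 among them. There, 10 were past 0.6 in place of 3, among them Mmp12, Mmp25, Adam23, Adam11 and Adam12 from under the filter. A pseudocount of 0.1 gave 5 past 0.6. For Ep2 against Ep1, the 4 lower members became 2 with no filter and 2 to 5 when a library was left out. Voom gave 8 past 0.6 in place of 3, among them Mmp28, Mmp25, Adam23 and Adam12 from under the filter. Beyond the added members, the causes were not tested. Of all tested genes called for Ep2 against Ep1, 42.8% were higher, and 55.5% after median centring, so the balance turned, as it did for Ep2 against Ctrl (44.9% and 52.7%). Differences that changed sign were never called: Mmp10 for Ep1 against Ctrl ranged from -0.0183 to 0.264 when a library was left out, Mmp11 for Ep2 against Ctrl was 0.0265 after median centring, 0.0618 after the length correction and -0.138 to 0.105 when a library was left out, and Adam17 for Ep2 against Ep1 was 0.0472, 0.00462 and -0.0225 to 0.00976 under the same settings. Libraries with the same replicate number correlated at -0.0565 to 0.0744 in their deviations from the group means (9 pairs) and those with different numbers at -0.108 to 0.153 (18 pairs). No pairing by number was visible in these values, but with 3 libraries per group they cannot settle whether same-numbered libraries were handled together. The replicate block ended 4 of the 34 calls, namely Adamts1 and Adamts14 in Ep1 and Mmp9 and Mmp14 in Ep2.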

Other observations

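Relatives of the members outside the naming rule were tested for 9 of 22 genes, with 0 higher and 3 lower in Ep1 and 2 higher and 4 lower in Ep2 than Ctrl (median -0.08 and -0.11). Of all tested genes, 6.32% were higher and 4.97% lower in Ep1, and 23.9% higher and 29.3% lower in Ep2, so the share higher in Ep2 was near that of all genes. Htra2, the mitochondrial HtrA protease, fell the most, by 0.21 in Ep1 (adjusted p = 0.0342, limma) and 1.30 in Ep2 (adjusted p = 1.47e-06), whereas the secreted Htra1 and Htra3 were higher in Ep2. Bmp1, the procollagen C-proteinase, fell by 0.22 in Ep1 (adjusted p = 0.0308) and 0.45 in Ep2 (adjusted p = 9.62e-05). Its enhancers Pcolce and Pcolce2 differed from Ctrl by -0.11 and -0.27 in Ep2 (adjusted p = 0.0455 and 0.00367). Ace, the angiotensin-converting enzyme of endothelial cells, rose by 0.69 in Ep2 (adjusted p = 9.70e-04), and Ece1, which processes endothelin, by 0.20 (adjusted p = 0.0190). Between the doses, Ace was higher and Htra2 and Bmp1 were lower in Ep2, against 18.8% and 25.2% of all tested genes.

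Of the 13 ADAM genes on chromosome 8, only Adam9 passed the filter, and 9 were at 0 in all libraries. App, the amyloid precursor that Adam10 cuts, was listed at 0.0102 FPKM on average, under the filter in every library.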
